A study of Drosophila melanogaster with 9 samples.

Results

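Gene expression was measured by RNA sequencing in adult midguts of Drosophila melanogaster females that were mutant for transformer (tra) but had its female form switched on in intestinal progenitors, and set against midguts of tra mutant females without it. The comparison took 3 libraries titled tra, esg>traF (the rescue here) and 3 titled tra (the mutant), that is 6 of the 9 libraries of the series. The other 3 came from control females (wild type in their titles) and are given beside the results to show where each level stood. All 3 groups were virgin females, labelled as 15 days old and as w1118 in strain background. Each library was a pool of 30 midguts. All flies were kept for 3 days at 18 °C and then moved to 29 °C for 10 days, the step that turns the transgene on in the rescue. How that schedule adds up to the labelled age is not given in the labels. The labels name no tra allele, no form of the esg driver and no insertion site of a transgene, and no group is labelled as carrying the driver without traF. A change made by traF and one carried by the chromosomes that came with the driver and the transgene therefore cannot be told apart by the rescue and mutant libraries alone. The midgut was sequenced whole, so in all results below fewer cells of a type and less RNA per cell cannot be told apart.

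tra encodes a splicing regulator that is made in functional form in females. With its partner Tra2 it directs the splicing of doublesex (dsx) and fruitless (fru) towards the female forms, and without it a chromosomally female fly develops male features. The gene escargot (esg) is active in the progenitors of the adult midgut, its stem cells and enteroblasts. The stem cells divide, and their offspring renew the enterocytes and the hormone-producing enteroendocrine cells. A driver taken from esg turns on a transgene in the progenitors. What was compared is thus a midgut that lacked tra in every cell with a midgut in which progenitors had it back during adult life.

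The libraries held between 84839470 and 108455374 gene counts, and 10088 genes passed the filter on low counts and were tested. Levels below are CPM, counts per 1000000 gene counts after scaling of the libraries. Correlations of log2 CPM between libraries were 0.983 to 0.985 within the rescue and 0.987 to 0.989 within the mutant. The first principal component of the 6 libraries held 37.3% of the variance and placed the rescue libraries at 10.5 to 35.1 and the mutant libraries at -29.8 to -15.1. Markers of midgut cells were present, and the groups overlapped at Myo61F. Myo61F, a myosin of the enterocyte brush border, had 1880 to 2270 CPM in the rescue and 1900 to 2310 CPM in the mutant. The enteroendocrine hormone gene Tk had 183 to 211 CPM in the rescue and 166 to 184 CPM in the mutant. Of 19 ovary markers 5 were tested, and of 20 testis markers 4. In every library 9 of the ovary and 16 of the testis markers had under 10 counts. The ovary markers together had 46.3 to 50.4 CPM in the rescue and 36.1 to 48.3 CPM in the mutant. Most of this came from gus, with 43.3 to 47.7 CPM in the rescue and 33.0 to 45.4 CPM in the mutant. The testis markers together had 39.4 to 54.3 CPM in the rescue and 37.9 to 55.4 CPM in the mutant, mostly from bol and mia. These sums thus rest on few genes. Rescue replicate 2 stood apart at lncRNA:roX1, a noncoding RNA of the male dosage compensation complex, with 10.2 CPM against 0.448 to 0.913 CPM in the other 8 libraries.

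The targeted gene came first. tra (chromosome arm 3L) had 756, 472 and 294 counts in the rescue, against 1, 2 and 1 counts in the mutant and 821, 650 and 742 counts in control. As CPM this was 6.49, 5.66 and 3.41 in the rescue, 0.0102, 0.021 and 0.00956 in the mutant, and 8.55, 6.91 and 6.62 in control. All rescue libraries lay far above all mutant libraries and below all control libraries. The summed counts, relative to library totals, were 404 times higher in the rescue than in the mutant, with a 95% counting interval of 157 to 1480. The fitted log2 fold change was 8.46 ± 0.41 (SE), and edgeR's quasi-likelihood test gave an adjusted p of 2.34e-05. tra was past the threshold of 0.05 under each of the 18 alternative settings tried, and it overlaps l(3)73Ah on the other strand. Against control, tra in the rescue differed by -0.50 ± 0.24 on the log2 scale, with an adjusted p of 0.215.

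Across all genes the rescue differed from the mutant at few. edgeR's quasi-likelihood test called 47 of the 10088 tested genes (0.466%), of which 19 rose (0.188%) and 28 fell (0.278%). Most calls were large, with 18 of the genes that rose and 25 of those that fell changed at least 2-fold. In the same fit the mutant differed from control at 673 genes (6.67%), with 369 up (3.66%) and 304 down (3.01%), and the rescue from control at 952 genes (9.44%), with 483 up (4.79%) and 469 down (4.65%). These comparisons share libraries, so their values are given only side by side. At an unadjusted p under 0.05 the rescue differed from the mutant at 511 genes (5.07%), and at 1227 genes (12.2%) the 3 rescue values and the 3 mutant values did not overlap. Leaving out any 1 of the 6 rescue and mutant libraries left 21 to 23 calls, leaving out control replicate 3 gave 71, and DESeq2 called 125 genes, with 63 up and 62 down.

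**Figure D1:**
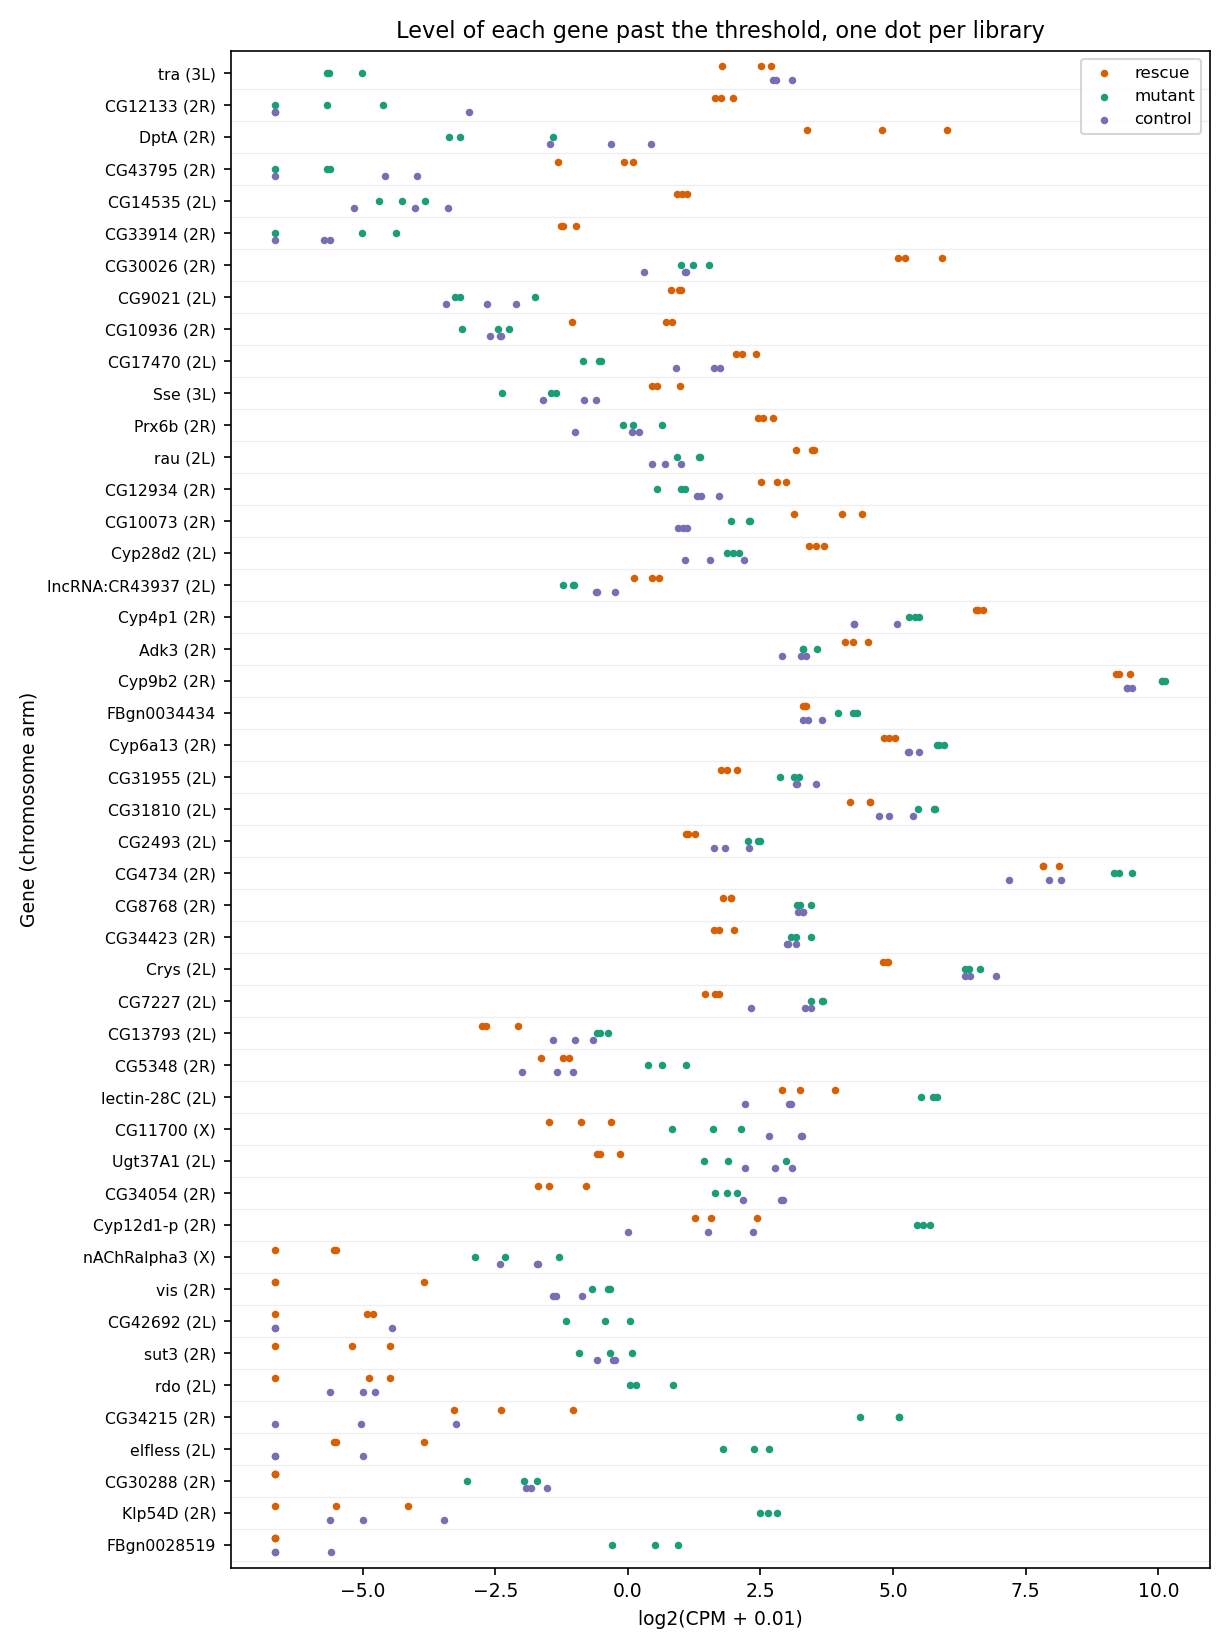
Level of each of the 47 called genes in every library, as log2(CPM + 0.01) on the x axis, with the genes (and their chromosome arm, where annotated) in order of their log2 fold change from highest to lowest. Each dot is 1 library, and rescue, mutant and control libraries are drawn in separate colours. At tra, on top, the rescue dots lie beside the control dots and the mutant dots stand alone near the left edge.

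The called genes were not spread evenly over the genome. Of the 45 called genes with an annotated arm, 41 lay on chromosome 2, with 17 on 2L and 24 on 2R, whereas chromosome 2 held 38.6% of the tested genes with an arm. Thus 1.10% of the tested genes of chromosome 2 were called, against 0.0673% of those elsewhere. The 4 called genes elsewhere were tra and Sse on 3L and CG11700 and nAChRalpha3 on X. None of the 2396 tested genes of 3R was called by edgeR's quasi-likelihood test, although 69 of them had an unadjusted p under 0.05.

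The same tilt was present among genes that did not pass. An unadjusted p under 0.05 was reached by 7.54% of tested genes on 2L and 9.25% on 2R, against 3.52% on X, 2.84% on 3L and 2.88% on 3R. Groups did not overlap at 15.3% of genes on 2L and 18.0% on 2R, against 10.1% on X, 9.56% on 3L and 9.06% on 3R. A fitted change of at least 1 on the log2 scale in either direction was found at 6.12% of genes on chromosome 2 and 3.01% elsewhere. The median log2 fold change was -0.01 on chromosome 2 and 0.00 elsewhere, so genes of chromosome 2 differed more often without a shared direction. With each arm cut into 10 equal runs of annotated genes, 2L held called genes in 7 runs and 2R in 8, with at most 3 in a run of 2L and 6 in a run of 2R.

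For the mutant against control, by contrast, called genes made up 7.11% of the tested genes on chromosome 2 and 6.45% of those elsewhere, with 7.09% on 2L, 7.14% on 2R, 7.09% on 3L, 7.22% on 3R and 4.67% on X. For the rescue against control they made up 10.2% on chromosome 2 and 9.0% elsewhere. Whether the difference between chromosomes itself differs among these comparisons was not tested. Chromosome 2 held most of the calls with an arm under every setting tried for the rescue against the mutant, for example 99 against 23 elsewhere with DESeq2, 62 against 6 with the 6 libraries alone, 21 against 1 without rescue replicate 2 and 57 against 12 without control replicate 3. The part of a strain or driver chromosome in these calls was not tested.

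**Figure D2:**
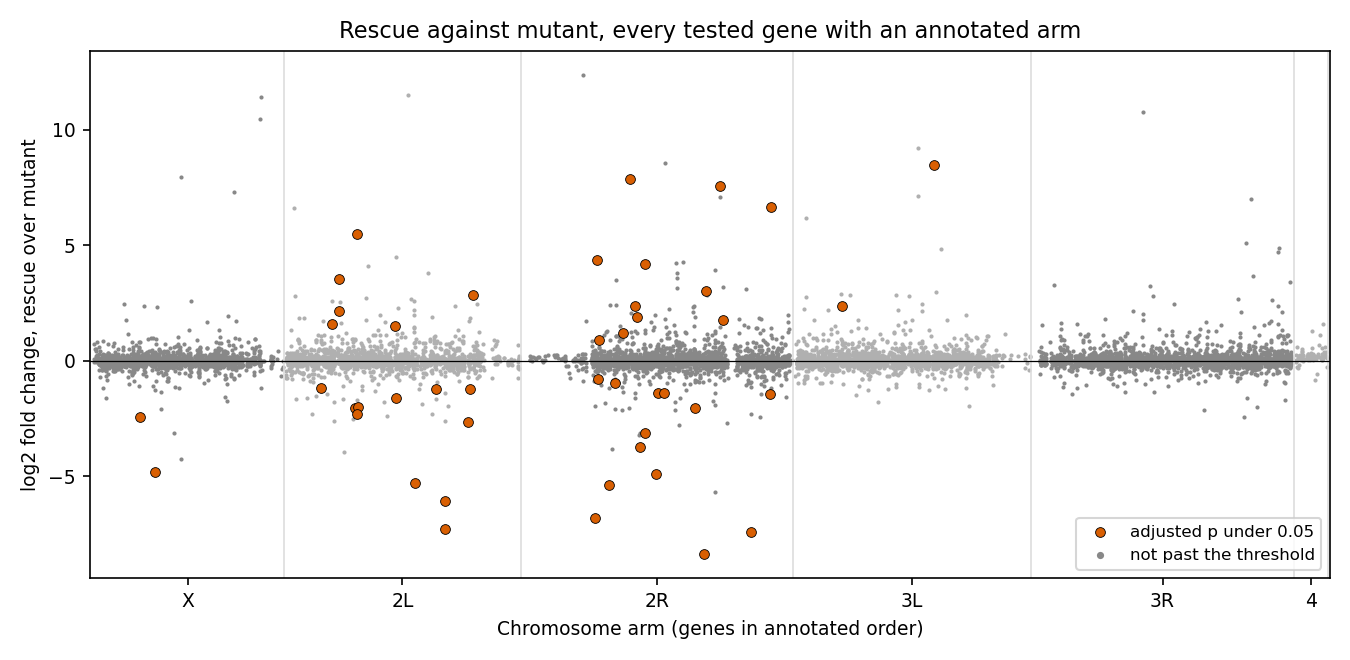
Log2 fold change of the rescue over the mutant for every tested gene with an annotated arm, with genes in annotated order along X, 2L, 2R, 3L, 3R and 4 on the x axis. Each point is 1 gene, and called genes are larger and coloured. The coloured points are 17 on 2L and 24 on 2R, above and below 0 along both arms, and 4 on all other arms.

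**Figure D3:**
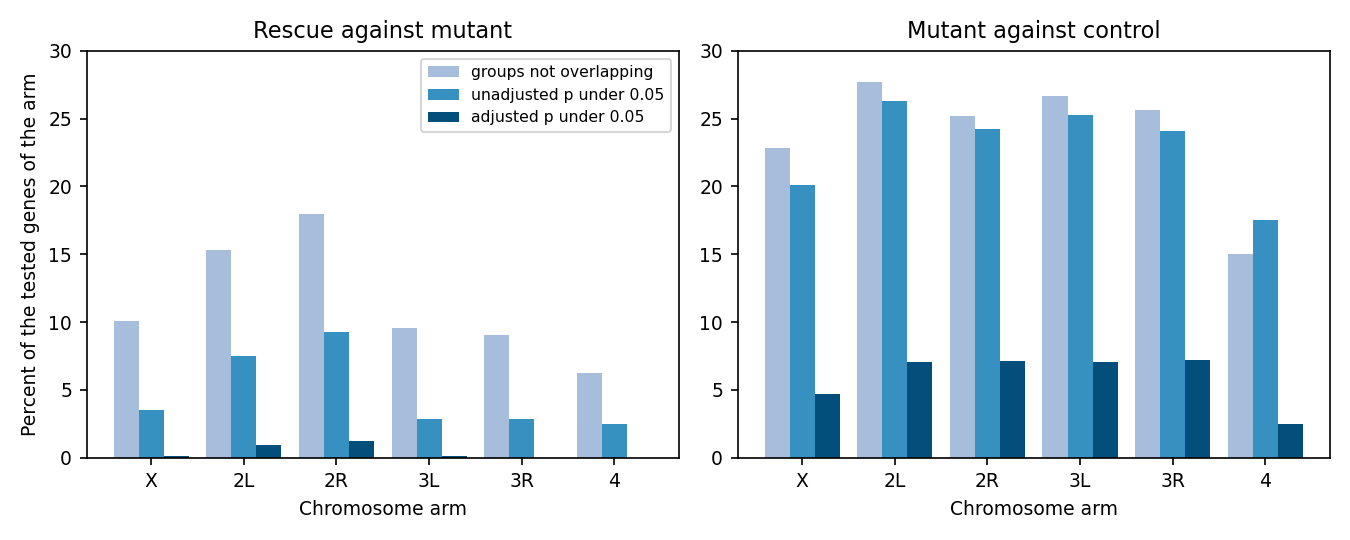
Percent of the tested genes of each chromosome arm whose groups did not overlap, that had an unadjusted p under 0.05, and that were called, for the rescue against the mutant (left) and the mutant against control (right), on one scale. On the left the bars of 2L and 2R stand above those of the other arms, with 15.3% and 18.0% of genes not overlapping, and on the right the arms 2L, 2R, 3L and 3R stand at 25.2% to 27.7%.

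At many called genes the rescue stood apart from both other groups. Among genes that fell, Crys (2L), which encodes a chitin-binding protein of the peritrophic matrix that lines the gut, had 28.1, 30.1 and 29.6 CPM in the rescue, 99.2, 82.0 and 86.1 CPM in the mutant, and 81.7, 86.9 and 123 CPM in control. The rescue values lay close together and below every value of the other groups, which overlapped. Its log2 fold change over the mutant was -1.61 ± 0.16 (SE), with an adjusted p of 0.00214 by edgeR. sut3 (2R), a sugar transporter gene, had 2, 0 and 3 counts in the rescue, 103, 75 and 54 in the mutant, and 63, 79 and 91 in control. Summed over libraries, its level was 43.7 times lower in the rescue than in the mutant (95% counting interval 18.5 to 136, adjusted p 0.00417). CG30288 (2R) had no count in any rescue library, against 11, 28 and 26 counts in the mutant and 26, 24 and 38 in control. Taken against a floor of 3 counts over the group, it was at least 20.4-fold lower in the rescue than in the mutant (adjusted p 0.0243).

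Smaller and even falls were measured at CG8768 and CG34423 on 2R. CG8768 had 3.84, 3.82 and 3.46 CPM in the rescue, 11, 9.46 and 9.11 CPM in the mutant, and 9.25, 9.91 and 9.84 CPM in control (log2 fold change over the mutant -1.41 ± 0.12, adjusted p 0.00114). CG34423, which overlaps an annotated antisense RNA, had 4.0, 3.06 and 3.29 CPM in the rescue, 10.9, 8.43 and 8.98 CPM in the mutant, and 8.98, 8.11 and 7.94 CPM in control (-1.45 ± 0.16, adjusted p 0.00308). In both genes the mutant and control ranges overlapped and the rescue lay below them. Log2 fold changes of -1.19, -1.24 and -1.99 were called at CG31955, CG2493 and CG7227 on 2L, calls that were lost in 4 to 6 of the 9 fits without 1 library (adjusted p at most 0.159). CG34054 (2R) stood in 3 steps, at 0.30 to 0.567 CPM in the rescue, 3.10 to 4.14 CPM in the mutant and 4.51 to 7.58 CPM in control (-3.15 ± 0.31, adjusted p 0.00161).

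Among low genes that fell were vis (2R), whose homeodomain product acts in spermatogenesis, nAChRalpha3 (X), a subunit of the nicotinic acetylcholine receptor, and CG13793 (2L). vis had 7, 0 and 0 counts in the rescue, against 75, 59 and 82 in the mutant and 52, 36 and 41 in control. nAChRalpha3 had 0, 1 and 1 counts in the rescue, against 39, 12 and 20 in the mutant and 17, 28 and 33 in control, and it overlaps several annotated elements. CG11700 (X), a ubiquitin gene whose reads may be shared with near-identical ubiquitin genes, had 0.790, 0.348 and 0.533 CPM in the rescue, 4.35, 1.78 and 3.05 CPM in the mutant, and 9.61, 9.78 and 6.28 CPM in control. In all of these the rescue libraries lay below every mutant library. The calls at these genes and at CG30288 were lost in 7 or 8 of the 9 fits that left out 1 library, in which the adjusted p reached at most 0.108 (CG30288) to 0.224 (CG13793).

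Among genes that rose in the rescue alone, rau (2L) encodes an adaptor that prolongs receptor tyrosine kinase signalling in the developing eye. It had 8.98, 11.3 and 11.1 CPM in the rescue, 2.55, 1.88 and 2.54 CPM in the mutant, and 1.37, 1.99 and 1.61 CPM in control. Its log2 fold change over the mutant was 2.17 ± 0.20 (SE), with an adjusted p of 0.0012. CG30026 (2R) had 60.2, 33.9 and 37.3 CPM in the rescue, 2.0, 2.88 and 2.33 CPM in the mutant, and 2.09, 2.13 and 1.23 CPM in control (4.19 ± 0.30, adjusted p 0.000427). CG14535 (2L) had 251, 169 and 163 counts in the rescue, against 6, 4 and 3 in the mutant and 5, 8 and 2 in control (5.49 ± 0.48, adjusted p 0.00114). In these 3 genes the lowest rescue library was above the highest library of the other groups, and each was past the threshold under all 18 alternatives.

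Sse (3L), which encodes separase, the protease that releases sister chromatids at anaphase, was the one gene outside chromosome 2 other than tra that rose. It had 1.36, 1.45 and 1.96 CPM in the rescue, 0.183, 0.357 and 0.383 CPM in the mutant, and 0.552, 0.319 and 0.651 CPM in control (log2 fold change over the mutant 2.36 ± 0.39, adjusted p 0.0348). Its highest adjusted p with 1 library left out was 0.159, and it overlaps sif on the other strand. Prx6b (2R), a peroxiredoxin gene, had 5.49, 5.84 and 6.68 CPM in the rescue, 1.55, 1.06 and 0.928 CPM in the mutant, and 0.490, 1.05 and 1.15 CPM in control (2.35 ± 0.33, adjusted p 0.0141). Adk3 (2R), an adenylate kinase gene, had 17.1, 22.9 and 19.0 CPM in the rescue, 9.79, 9.83 and 11.9 CPM in the mutant, and 10.3, 9.60 and 7.47 CPM in control. That rise of 0.90 ± 0.16 had an adjusted p of 0.0489, close to the threshold, and was past it in 5 of 18 alternatives. Prx6b lost the call in 5 and Adk3 in 8 of the 9 fits without 1 library, with an adjusted p of at most 0.261.

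CG12133 (2R) was nearly absent outside the rescue, with 459, 281 and 268 counts there, 3, 0 and 1 counts in the mutant, and 0, 0 and 13 counts in control. Its summed level was 268 times higher in the rescue than in the mutant, with an adjusted p of 0.0128. CG43795 (2R) had 123, 78 and 34 counts in the rescue, against 0, 1 and 1 in the mutant and 0, 3 and 6 in control. CG33914 (2R) had 49, 34 and 43 counts in the rescue, against 0, 2 and 4 in the mutant and 1, 0 and 1 in control. CG43795 and CG33914 overlap other annotated genes, so the source of their counts is uncertain. CG9021 (2L) and CG10936 (2R) rose by 3.53 ± 0.49 and 3.01 ± 0.51 on the log2 scale (adjusted p 0.0141 and 0.041). CG10073 (2R) rose by 1.77 ± 0.28 to 8.75, 21.3 and 16.4 CPM in the rescue, against 3.83, 4.86 and 4.92 CPM in the mutant and 1.91 to 2.17 CPM in control. The calls of these 6 genes were lost in 4 to 7 of the 9 fits without 1 library, with an adjusted p of at most 0.228.

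In another set of called genes the mutant stood alone, and the rescue libraries lay near those of control. elfless and rdo on 2L are separated by 1 annotated gene. elfless, which encodes a RING finger protein, had 7, 1 and 1 counts in the rescue, against 338, 598 and 545 in the mutant and 0, 2 and 0 in control. rdo, named for its effect on the ocelli, had 0, 2 and 3 counts in the rescue, against 100, 171 and 115 in the mutant and 1, 2 and 3 in control. Summed levels of elfless were 155 times lower in the rescue than in the mutant (95% counting interval 81.4 to 340), and those of rdo 72.7 times lower (30.9 to 225). Adjusted p was 0.00114 for elfless and 0.00372 for rdo, and both were past the threshold under every alternative that gave a value. Arr1 (2L), an arrestin gene of photoreceptors, had 3.16, 1.49 and 2.27 CPM in the rescue, 8.23, 19.1 and 14.8 CPM in the mutant, and 0.250, 0.244 and 0.0357 CPM in control. Unlike elfless and rdo, it stood in the rescue below every mutant library but above every control library. Its adjusted p of 0.0754 by edgeR missed the threshold.

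Genes of the same kind were found on 2R. Klp54D, a kinesin-like motor gene, had 0, 1 and 4 counts in the rescue, against 688, 592 and 589 in the mutant and 1, 2 and 9 in control. Its summed level was 352 times lower in the rescue than in the mutant, with a 95% counting interval of 151 to 1090 and an adjusted p of 0.00114. CG34215 had 0.481, 0.180 and 0.0927 CPM in the rescue, 34.4, 20.7 and 34.4 CPM in the mutant, and 0.0208, 0.0956 and 0 CPM in control (log2 fold change over the mutant -6.82 ± 0.61, adjusted p 0.00114). The identifier FBgn0028519, which the name table does not pair with a symbol or an arm, had no count in the rescue, 188, 135 and 84 counts in the mutant, and 0, 1 and 0 in control. Against the floor of 3 counts over the group it was at least 128-fold lower in the rescue than in the mutant. At each of these genes rescue and control libraries had from 0 to 56 counts while no mutant library had fewer than 84.

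At higher levels, lectin-28C (2L), a C-type lectin gene, had 15.0, 7.46 and 9.45 CPM in the rescue, 57.0, 54.1 and 46.0 CPM in the mutant, and 8.43, 8.17 and 4.6 CPM in control. It fell by 2.30 on the log2 scale (SE 0.29, adjusted p 0.00806), and the call was lost without rescue replicate 3, at 0.0604. lectin-28C is the immediate annotated neighbour of CG14535, which rose, and CG30026 and CG34054 on 2R, 1 up and 1 down, are likewise immediate neighbours. CG4734 (2R) had 226, 281 and 226 CPM in the rescue, 723, 573 and 613 CPM in the mutant, and 245, 285 and 145 CPM in control (-1.38 ± 0.24, adjusted p 0.0429). CG42692 (2L), CG5348 (2R) and the unpaired identifier FBgn0034434 also differed, with log2 fold changes of -5.31, -2.06 and -0.85, and lay near control levels in the rescue. CG4734, CG42692, CG5348 and FBgn0034434 lost the call in 5 to 7 of the 9 fits without 1 library.

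A few called genes stood at 3 separate levels. CG17470 (2L) had 4.10, 5.32 and 4.42 CPM in the rescue, 0.550, 0.672 and 0.698 CPM in the mutant, and 3.07, 3.33 and 1.86 CPM in control, and rose by 2.85 ± 0.26 over the mutant (adjusted p 0.0012). Its rescue and control levels differed by 0.75 on the log2 scale, with an adjusted p of 0.0824. CG12934 (2R) had 5.65, 7.01 and 7.93 CPM in the rescue, 1.99, 2.11 and 1.46 CPM in the mutant, and 2.45, 3.26 and 2.58 CPM in control (1.89 ± 0.22, adjusted p 0.00417). In both genes the mutant was lowest and the rescue highest. CG31810 fell by 1.24 and lncRNA:CR43937 rose by 1.51 on the log2 scale, both on 2L, and both lost the call in 6 or 8 of the 9 fits without 1 library.

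Lists of known genes placed few of these calls. Over 27 lists, 530 tested genes belonged to at least 1 list, and 5 of them rose and 5 fell, 1.89% of the tested members against 0.466% of all tested genes. The lists were chosen with earlier results of these data known, and tra, the gene switched on by design, is a called member. These shares therefore describe the lists and are no test of them. The called members sat in 6 lists, for sex determination, transgene-associated genes (tra in both), carbohydrate digestion (sut3), JAK-STAT, EGFR and JNK signalling (rau), Imd-type antimicrobial peptides (DptA) and detoxification enzymes (6 genes). The remaining 21 lists, with 391 tested genes, held no called member by edgeR's quasi-likelihood test. In them, before adjustment, 13 genes were higher and 2 lower at p under 0.05, and DESeq2 called 4 that rose and 2 that fell. Over all 10088 tested genes 5.07% reached that p in either direction, and DESeq2 called 125.

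Detoxification enzymes (cytochromes P450, glutathione transferases and UDP-glycosyltransferases, which modify and clear foreign compounds and which midgut cells express) held the most called members. Of 61 tested genes 2 rose and 4 fell, and all 6 lay on chromosome 2, which holds 41 of the 61. The called share was 0.466% over all tested genes and 1.10% over those on chromosome 2. Groups did not overlap at 23 of the 41 genes on chromosome 2 (56.1%) and at 2 of the 20 elsewhere (10.0%), beside 12.2% of all tested genes and 16.7% of those on chromosome 2. On chromosome 2 the median log2 fold change was -0.27, and before adjustment 5 genes were higher and 14 lower at p under 0.05. Over all tested genes of chromosome 2, 8.45% reached that p in either direction. On the other chromosomes the median was 0.02, with 1 gene higher and none lower before adjustment, none called by edgeR, and a range of -0.35 to 1.09. Over all 61 genes DESeq2 called 3 that rose and 11 that fell. It called 125 of all 10088 tested genes, and 2.65% of those on chromosome 2.

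Of the P450 genes that fell, Cyp12d1-p (2R) had 5.37, 2.97 and 2.40 CPM in the rescue, 51.5, 43.7 and 47.5 CPM in the mutant, and 5.12, 2.83 and 0.990 CPM in control. Its summed level was 12.4 times lower in the rescue than in the mutant (adjusted p 0.0141), and its counts are uncertain because of the near-identical copy Cyp12d1-d, named after its values were seen, whose log2 fold change was -3.12 with an adjusted p of 0.286. Cyp6a13 (2R) had 30.5, 28.5 and 32.6 CPM in the rescue, 61.8, 58.4 and 57.0 CPM in the mutant, and 44.6, 39.1 and 39.6 CPM in control (-0.95 ± 0.10, adjusted p 0.00283). Cyp9b2 (2R) had 709, 585 and 612 CPM in the rescue, against 1070, 1120 and 1070 CPM in the mutant and 679, 678 and 727 CPM in control (-0.78 ± 0.14, adjusted p 0.0459). At Cyp12d1-p and Cyp9b2 the rescue overlapped control, and at Cyp6a13 it lay below both other groups. Cyp6a13 was past the threshold under all 18 alternatives and Cyp9b2 under 4.

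Ugt37A1 (2L), a UDP-glycosyltransferase gene, had 0.893, 0.659 and 0.683 CPM in the rescue, 3.69, 7.88 and 2.70 CPM in the mutant, and 4.59, 6.81 and 8.50 CPM in control (log2 fold change over the mutant -2.67 ± 0.41, adjusted p 0.0272). Of the genes that rose, Cyp28d2 (2L) had 11.6, 10.6 and 12.9 CPM in the rescue, 4.24, 3.92 and 3.66 CPM in the mutant, and 4.53, 2.90 and 2.10 CPM in control (1.57 ± 0.25, adjusted p 0.03). Cyp4p1 (2R) had 103, 94.1 and 96.4 CPM in the rescue, 42.8, 39.2 and 44.8 CPM in the mutant, and 19.2, 19.2 and 33.6 CPM in control (1.21 ± 0.20, adjusted p 0.0384). In all 3 genes no rescue library overlapped a library of another group. The 4 members with the highest mean CPM were not called, with log2 fold changes of -0.34 ± 0.29 for Cyp6d5, 0.11 ± 0.22 for GstD1, -0.15 ± 0.27 for Cyp12a4 and -0.37 ± 0.52 for Cyp6g1. Cyp12d1-p, Ugt37A1, Cyp28d2 and Cyp4p1 lost the call in 5 to 7 of the 9 fits without 1 library, with an adjusted p of at most 0.219.

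**Figure D4:**
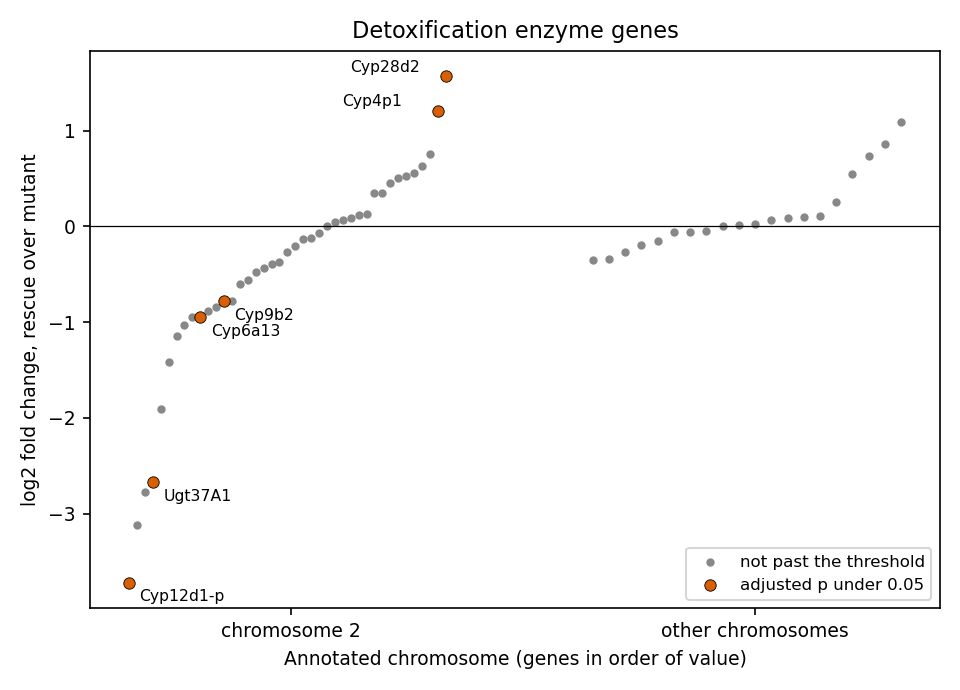
Log2 fold change of the rescue over the mutant for the 61 tested detoxification enzyme genes, those on chromosome 2 (41) left and those on other chromosomes (20) right, each in order of value. Each point is 1 gene, and the 6 called genes are larger, coloured and named. The genes on chromosome 2 run from -3.72 to 1.57 and those elsewhere from -0.35 to 1.09.

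Antimicrobial peptides are secreted when bacterial peptidoglycan activates the Imd pathway, in fat body and in gut epithelium. DptA (2R), which encodes diptericin A, rose. It had 65.0, 10.4 and 27.5 CPM in the rescue, 0.102, 0.367 and 0.0861 CPM in the mutant, and 0.354, 1.34 and 0.794 CPM in control. Even the lowest rescue library was above all mutant and control libraries, and the rescue libraries also differed widely among themselves. The log2 fold change over the mutant was 7.54 ± 0.89 (SE), with an adjusted p of 0.00487, and the call was lost without mutant replicate 1, at 0.0613.

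The other Imd-type peptides did not pass. Of 12 tested members 10 were higher at an unadjusted p under 0.05, which 5.07% of all tested genes reached in either direction. Groups did not overlap at 10 members (12.2% of all tested genes), and the median log2 fold change was 4.03 against 0.00 over all tested genes. DESeq2 called 5, beside 125 of all 10088 tested genes. Several members entered the test through their rescue or control counts alone, so these counts describe the list and no more. AttC, for which the mutant had no count and the rescue 140 in all, was at least 49.6-fold higher in the rescue, and with AttC at this bound the list median remained 4.03. DptB (2R) had 3.77, 3.73 and 1.18 CPM in the rescue, against 0.0509, 0.0105 and 0 CPM in the mutant, but 0.0208, 8.18 and 0.0625 CPM in control (7.08 ± 2.16, adjusted p 0.498). AttA (2R), an attacin gene, had 0.232, 0.240 and 0.139 CPM in the rescue, against 0.0204, 0.0210 and 0 CPM in the mutant and 0.0208, 0.553 and 0.0535 CPM in control. Mtk (2R), which encodes metchnikowin, had 0.137, 1.02 and 0.0927 CPM in the rescue, against 0, 0.0420 and 0.0191 CPM in the mutant and 0, 1.46 and 0.0892 CPM in control. Control replicate 2 was above all rescue libraries at DptB, AttA and Mtk, and also at AttB and CecC, 2 members named after their values were seen.

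Def (2R), the insect defensin gene, had 1.69, 2.95 and 4.38 CPM in the rescue, 0.550, 1.07 and 0.507 CPM in the mutant, and 0.365, 1.07 and 0.642 CPM in control (2.08 ± 0.49, adjusted p 0.215). The cecropin gene CecA1 (3R) had 0.927, 0.228 and 0.232 CPM in the rescue, 0.0306, 0 and 0.0191 CPM in the mutant, and 0.0208, 0.117 and 0.0268 CPM in control (4.70 ± 1.0, adjusted p 0.13). For both, the rescue lay above every other library. CecA1 and AttC were picked out after their values were seen. AttA, Dro and Mtk (2R) had log2 fold changes of 3.80, 3.56 and 4.27 with adjusted p of 0.63, 0.657 and 0.954. The 8 tested members on chromosome 2 were all higher at an unadjusted p under 0.05, with a median of 4.03, and 2 of the 4 on 3R were, with a median of 3.14. Summed over the list, the peptides took 22.6 to 74.8 CPM in the rescue, 1.10 to 2.10 CPM in the mutant and 1.09 to 16.5 CPM in control. DptA, the called member, took 65.0, 10.4 and 27.5 CPM of that sum in the rescue. In control replicate 2 DptB took 8.18 CPM of it.

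The summed level of the fat body markers, which include the yolk protein genes, was 31.7 to 38.7 CPM in the rescue, 25.3 to 26.9 CPM in the mutant and 42.4 to 126 CPM in control, with none of 13 called by edgeR, 3 higher at an unadjusted p under 0.05 and none called by DESeq2. That of the trachea and haemocyte markers was 188 to 262 CPM in the rescue, 219 to 261 CPM in the mutant and 155 to 200 CPM in control. Most of that sum came from crq, a scavenger receptor gene, which had 242, 216 and 175 CPM in the rescue, 216, 200 and 249 CPM in the mutant, and 136, 120 and 122 CPM in control (log2 fold change over the mutant -0.07). Over the 9 tested trachea and haemocyte markers the log2 fold change of rescue over mutant had a median of 1.05 and ran from -0.07 to 1.98. Of these 9, 1 was higher at an unadjusted p under 0.05, neither edgeR nor DESeq2 called any, and at each of them the rescue and mutant overlapped. Hml, which marks haemocytes, had 6.13, 17.3 and 3.07 CPM in the rescue, 2.27, 6.31 and 2.03 CPM in the mutant, and 7.31, 28.6 and 9.15 CPM in control. The collagen gene Col4a1 had 5.18, 8.27 and 2.36 CPM in the rescue, 1.94, 3.51 and 2.21 CPM in the mutant, and 8.44, 21.9 and 9.35 CPM in control. Their part in the peptide values was not tested. Among 31 other gut immune genes edgeR called none, with 3 higher at an unadjusted p under 0.05 and 2 called up by DESeq2. Over all 10088 tested genes 5.07% reached that p in either direction, and DESeq2 called 63 up.

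**Figure D5:**
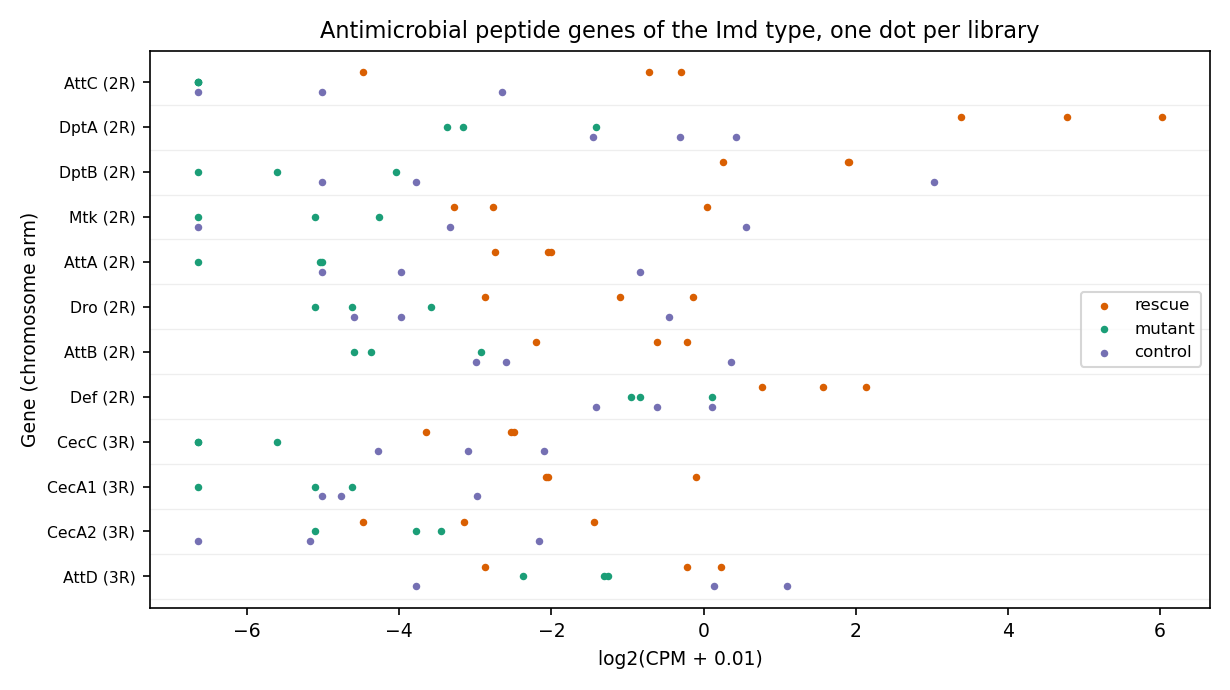
Level of the 12 tested Imd-type antimicrobial peptide genes in every library, as log2(CPM + 0.01), with the genes of chromosome 2 above those of 3R. Each dot is 1 library, with rescue, mutant and control libraries in separate colours. The rescue dots lie right of the mutant dots at 10 of the 12 genes, and at several genes 1 control library lies among or right of the rescue dots.

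Of the sex determination genes tra alone was called. dsx, the transcription factor gene whose splicing tra controls, had 51.1, 48.1 and 40.2 CPM in the rescue, 28.5, 37.9 and 40.0 CPM in the mutant, and 30.5, 23.5 and 22.2 CPM in control. The rescue lay above the mutant in every library by a narrow margin, and the log2 fold change of 0.39 ± 0.17 had an adjusted p of 0.955. Sxl, the switch gene that controls tra splicing, was at 253, 230 and 252 CPM in the rescue and at 156, 239 and 175 CPM in the mutant (0.36 ± 0.16, adjusted p 0.965). tra2, which acts with tra, differed by -0.12 ± 0.12. fru, whose splicing tra also controls, differed by 0.05 ± 0.21, and ix, which acts with dsx, by 0.08 ± 0.14. These are levels summed over all transcript forms of a gene, and the splicing of dsx and fru was not analysed here.

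No dosage compensation gene of 7 tested was called by either tool, and 1 was higher at an unadjusted p under 0.05. msl-2, whose product is limited to males in normal development, had 9.66, 10.8 and 9.40 CPM in the rescue, 10.1, 11.3 and 11.4 CPM in the mutant, and 12.2, 12.8 and 9.98 CPM in control (log2 fold change over the mutant -0.13 ± 0.13). mle, msl-1 and msl-3, which encode further parts of the complex, differed by -0.02, -0.02 and 0.01. lncRNA:roX1 differed by 2.45 ± 0.95 (adjusted p 0.838) through rescue replicate 2 alone, and without that library by -0.11. lncRNA:roX2 had 0, 14 and 0 counts in the rescue, 0, 1 and 0 in the mutant and none in control, and was not tested.

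Yolk protein genes are expressed in the female fat body under dsx control. Yp1 had 0.0172, 0.348 and 0.0232 CPM in the rescue, 0.367, 0.0840 and 0.0861 CPM in the mutant, and 44.9, 25.2 and 5.23 CPM in control. Yp2 had 0.112, 0.252 and 0.116 CPM in the rescue, 0.234, 0.199 and 0.0765 CPM in the mutant, and 16, 15.9 and 2.25 CPM in control. Rescue and mutant overlapped at both genes and lay below every control library. The rescue differed from the mutant by -0.56 ± 1.24 at Yp1 and -0.11 ± 0.81 at Yp2 (adjusted p 0.999 for both), and from control by -7.69 and -6.17 (adjusted p 0.00401 and 0.00213). Yp3, at 4.17 CPM in rescue replicate 3 and 0.438 CPM or less in the other rescue and mutant libraries, differed by 2.60 ± 1.15 from the mutant (adjusted p 0.976).

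Markers of progenitors, the cells in which traF was placed, held no call among 20 tested by edgeR or DESeq2, and none had an unadjusted p under 0.05 in edgeR. Delta (Dl), which encodes the Notch ligand made by stem cells, had 6.34, 5.50 and 7.55 CPM in the rescue, 5.59, 7.49 and 6.58 CPM in the mutant, and 4.97, 5.86 and 16 CPM in control (log2 fold change over the mutant -0.02 ± 0.39, adjusted p 0.999). The Notch receptor gene N had 7.89, 6.80 and 7.59 CPM in the rescue and 7.49, 8.94 and 5.33 CPM in the mutant. Sox21a, a transcription factor gene of stem cells and enteroblasts, had 8.19, 7.67 and 7.37 CPM in the rescue, 8.66, 9.89 and 13.3 CPM in the mutant, and 8.55, 15.8 and 54.1 CPM in control (log2 fold change over the mutant -0.46 ± 0.53). upd3, a cytokine gene that drives stem cell division after damage, had 1.68, 0.911 and 0.452 CPM in the rescue. It had 3.79, 1.03 and 5.40 CPM in the mutant and 0.917, 1.84 and 30.9 CPM in control. Its log2 fold change over the mutant was -1.73 ± 1.17 (adjusted p 0.999 by edgeR). Control replicate 3 was the highest library at Delta, Sox21a and upd3. The rescue and mutant overlapped at Delta, at N and at upd3, and at Sox21a the rescue was below the mutant without passing the test.

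Cell cycle genes were at a summed level of 433 to 492 CPM in the rescue, 417 to 478 CPM in the mutant and 634 to 749 CPM in control. Of 46 tested, edgeR and DESeq2 called none, and 1 was higher at an unadjusted p under 0.05. SMC2 (2R), a condensin subunit gene, had 6.54, 3.99 and 3.41 CPM in the rescue, 4.31, 4.35 and 6.39 CPM in the mutant, and 248, 236 and 136 CPM in control. The control sum includes these SMC2 values, so its height does not describe cell cycle genes as a group. Rescue and mutant overlapped at SMC2, with a log2 fold change of -0.11 ± 0.30, and the rescue differed from control by -5.47 ± 0.35 (adjusted p 5.26e-05). LysD, a digestive lysozyme gene, showed the opposite order, with 2680, 4160 and 3100 CPM in the rescue, 3800, 3070 and 3340 CPM in the mutant, and 128, 215 and 108 CPM in control. It differed by -0.04 ± 0.28 between rescue and mutant and by 4.46 between rescue and control (adjusted p 8.66e-05).

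Carbohydrate digestion genes, of which 29 were tested and sut3 alone was called, took 77200 to 89900 CPM in the rescue, 86000 to 95700 CPM in the mutant and 27500 to 50900 CPM in control. Mal-A1, a maltase gene, had 21400, 23900 and 21900 CPM in the rescue, 25100, 25300 and 23100 CPM in the mutant, and 13200, 9680 and 7860 CPM in control. The rescue overlapped the mutant and lay above control at Mal-A1, with log2 differences of -0.13 ± 0.25 from the mutant and 1.13 from control (adjusted p 0.999 and 0.0247). Amy-p, an amylase gene, differed by -0.25 ± 0.25 between rescue and mutant. Trypsins and Jonah proteases, 28 tested, ranged from -0.50 to 0.58 on the log2 scale, with no call by either tool and none at an unadjusted p under 0.05.

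Marker genes of enteroendocrine cells, hormones among them, with 27 tested, ranged from -0.39 to 0.75 on the log2 scale around a median of 0.15, with no call by either tool and 1 higher at an unadjusted p under 0.05. Enterocyte and regional genes (20 tested, -0.51 to 0.30) and visceral muscle genes (16 tested, -0.26 to 0.86) likewise held no call by either tool and none at an unadjusted p under 0.05. Ribosomal protein genes, 75 tested, had a median of -0.22 and a range of -0.44 to 0.25, with no call by either tool and none at an unadjusted p under 0.05. Their summed level was 53500 to 62800 CPM in the rescue and 57900 to 76800 CPM in the mutant, so the ranges overlapped.

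The study named Imp, Spn88Eb and Him as genes downstream of tra in the gut, a choice made with these libraries. The values of Spn88Eb and Him here are therefore not independent evidence. Imp was not matched to a row of the counts and was not analysed here. Spn88Eb (3R), a serpin gene, had 21, 35 and 8 counts in the rescue, 4, 2 and 1 in the mutant, and 15, 31 and 19 in control. Each rescue library was above each mutant library, but the log2 fold change of 3.21 ± 0.75 had an adjusted p of 0.214 by edgeR's quasi-likelihood test (p 0.00176 before adjustment) and was past the threshold in DESeq2. In the mutant it differed from control by -3.14 (adjusted p 0.0372). Him had 0, 2 and 0 counts in the rescue and 1, 0 and 1 in the mutant, and was not tested. The eye colour gene w, carried as a marker by many transgenes and mutant in the w1118 strain, had 20.9, 26.4 and 25.4 CPM in the rescue, 24.9, 27.7 and 26.4 CPM in the mutant, and 21.9, 27.1 and 42.0 CPM in control, and its log2 fold change over the mutant was -0.12 ± 0.21.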

How the data were processed

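The authors deposited raw counts per gene for each library, as whole numbers. The tools named in the submitters' processing notes are TopHat2 2.0.11 and HTSeq, with dm3 as genome build. The version, strand setting and overlap mode of HTSeq are not given in the sources used here, and counts of overlapping genes are treated as uncertain. Of the 47 called genes, 15 overlap an annotated gene or element on the other strand and 5 on the same strand. Per the labels' protocols, 500 ng of RNA entered a stranded mRNA library kit, and pairs of 100-base reads were sequenced. Each table ends in 5 lines of totals, which entered neither library sizes nor tests. They held reads outside genes (1.30% to 1.83% of counted alignments), matching more than 1 gene (0.822% to 1.09%) or aligning at more than 1 place (14.6% to 22.9%).

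Sample titles gave the groups and replicate numbers. Since no label ties replicates to separate cultures, the p-values cover the spread among these samples alone, and part of that spread may be technical. No library was a copy of another, since chi-square values per degree of freedom between replicates were 121.5 to 322.9. Of 15682 gene identifiers 15002 were paired with a symbol and an arm through the reference name table and the Ensembl release 115 annotation. That annotation is on another build, so no coordinates are given. The 680 left unpaired held 4.84% to 5.60% of gene counts.

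The main test was that of edgeR 4.0.16 in R 4.3.3 (filterByExpr with a minimum of 10 counts and 15 in total, TMM scaling, glmQLFit and glmQLFTest). All 9 libraries were fitted with a mean per group, so the groups share 1 estimate of the spread (common biological coefficient of variation 0.246). P-values were adjusted by Benjamini and Hochberg over 10088 genes, and called means an adjusted p under 0.05. Standard errors follow from the F statistic. Ratios of summed counts use library totals and 95% exact binomial intervals, which cover counting error only. A count of 0 allows up to 3 counts, at most 0.0354 CPM in the shallowest library, rescue replicate 2. For alignment shares an exact permutation test, two-sided, was run in scipy 1.17.1 (Python 3.11.15), and its smallest p for 3 against 3 libraries is 0.1. On simulated counts for 9999 genes in this comparison, the test called 47.0% of genes changed 2-fold, 88.0% of those changed 4-fold and 0.0714% of unchanged genes. These counts were drawn independently around 1 mean per gene over all 9 libraries, with the spread fitted to these data. Real group differences and outlying libraries were not simulated, so the rates may not hold for the real data.

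The alternatives were other scalings, filters, DESeq2 1.42.0, a fit on 6 libraries, a replicate block and leaving out each library. Named genes were all called genes, a set of genes fixed by symbol (tra, tra2, Sxl, dsx, fru, ix, msl-2, lncRNA:roX1, lncRNA:roX2, the yolk protein genes, Spn88Eb, Him, w, Delta, N, Sox21a, upd3, DptB, AttA, Dro, Mtk) and, from each list, up to 4 members with the highest mean level. Genes named outside that rule are marked as chosen after their values were seen. The comparison, the genes and the 27 lists were chosen with earlier results of these data known. The genes esg and Imp were not matched to a row of the counts and were not analysed here.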

Additional observations from a re-analysis of the deposited data

Results flagged for a closer look

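In data outside the gene counts, reads aligned outside annotated genes took 1.71% ± 0.122 of counted alignments in the rescue, 1.41% ± 0.0967 in the mutant and 1.40% ± 0.0929 in control (SD, n = 3 each). Reads matching more than 1 gene took 1.07% ± 0.0238 in the rescue, 1.01% ± 0.0369 in the mutant and 0.865% ± 0.0393 in control. Both shares drew attention because every rescue library was above every control library and every mutant library. With 3 libraries a group, such a separation fixes the exact permutation p of rescue against mutant at 0.1, so the test adds nothing to it. The share of reads aligned at more than 1 place was 18.8% in the rescue, 19.4% in the mutant and 15.3% in control, with an exact permutation p of 0.7 for rescue against mutant.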

How the results depend on the processing

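Against 19 genes that rose and 28 that fell, DESeq2 called 63 and 62, the filter of 1 CPM in 3 libraries left 18 that fell, and the 6 libraries alone gave 44 that fell. On chromosome 2, with 41 calls, DESeq2 called 99 genes and the 6 libraries alone gave 62. On the other chromosomes, with 4 calls, DESeq2 called 23. List members that rose (5) numbered 14 with DESeq2. Those that fell (5) numbered 14 with DESeq2, 8 with no filter, 3 with the filter of 1 CPM and 11 with the 6 libraries alone. The cause was not tested. With 1 library left out, genes that rose numbered 7 to 28 and those that fell 11 to 43, calls on chromosome 2 were 19 to 57 and elsewhere 1 to 12, and list members that rose 2 to 5 and fell 2 to 10. The highest of these counts came without control replicate 3. Without 1 rescue or mutant library, fewer samples entered the contrast. Of the 47 called genes, 17 passed under every alternative that gave a value. Other scalings moved the median of all genes by under 0.1 on the log2 scale. Small differences turned sign with 1 library left out, over ranges of log2 fold change of -0.10 to 0.32 at fru, -0.11 to 2.97 at lncRNA:roX1, -3.08 to 0.50 at Yp1, -0.56 to 0.20 at Yp2, -0.13 to 0.21 at N and -0.15 to 0.09 at Delta, whose -0.02 was 0.00 with library totals alone. Deviations of rescue and mutant libraries of the same replicate number correlated at r = 0.0964, 0.0726 and -0.237. Pairs of different number had r from -0.215 to 0.14. With 3 libraries a group, these values cannot show whether equal numbers shared a batch. With the replicate number as a block 15 genes rose and 23 fell. With the block and the 6 libraries alone 26 rose and 37 fell, 7 calls lay outside chromosome 2, and 9 list members rose and 11 fell.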

Other observations

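Some large differences that did not pass the test rested on single rescue libraries. Of the tested genes that were not called, 16 had a fitted log2 fold change beyond 5 in either direction, 15 of them higher in the rescue. At 9 of these the high value was that of rescue replicate 3, and the same 9 genes were also higher in control replicates 1 and 3 than in control replicate 2. CG16826 had 0.0515, 0.396 and 367 CPM in the rescue, 0.0713, 0.0315 and 0.0191 CPM in the mutant, and 282, 0.0106 and 231 CPM in control. lcs had 0.0343, 0.204 and 134 CPM in the rescue, 0.0713, 0.0105 and 0.00956 CPM in the mutant, and 62.2, 0.0106 and 66.3 CPM in control. whe had 0.0601, 0.0480 and 121 CPM in the rescue, 0.0407, 0 and 0 CPM in the mutant, and 49.9, 0.0213 and 49.4 CPM in control. At these 3 genes rescue replicate 3 and control replicates 1 and 3 stood at 49.4 CPM or more and the other 6 libraries below 1 CPM.

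A second set was high in rescue replicate 2 alone, the library that also stood apart at lncRNA:roX1. Mur18B, a mucin-related gene, had 0.0258, 73.2 and 0.463 CPM in the rescue, 0.0407, 0.0735 and 0.344 CPM in the mutant, and 2.57, 3.01 and 0.232 CPM in control. Muc11A, another mucin gene, had 0, 20.9 and 0.0347 CPM in the rescue, 0.0102, 0 and 0.0669 CPM in the mutant, and 1.18, 2.92 and 0.0446 CPM in control. CG14245 had 0, 6.92 and 0 CPM in the rescue and at most 0.404 CPM in any mutant or control library. All genes of these paragraphs were chosen after their values were seen.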
